A study of Mus musculus with 56 samples.

Results

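Wildtype cerebellum was compared with wildtype hippocampus to describe the genes and functions that tell these brain regions apart in the mouse. The 14 arrays of this comparison, 6 of cerebellum and 8 of hippocampus, were all the wildtype (wt) arrays of both regions among the 56 arrays of the series, and were taken by their genotype and tissue labels. The series profiled the hippocampus, striatum, cerebellum and liver of mice that carried one copy (Del/+) or an extra copy (Dup/+) of the region from Sult1a1 to Spn, the counterpart of human 16p11.2, and of their wt littermates, on Affymetrix Mouse Gene 2.1 ST arrays. All mice of the comparison were untreated adult males on a C57BL/6N background that by their labels carried neither rearrangement. Whole dissected regions were used, with 1 array for each mouse and region. The wt mice came from the breeding of both rearrangement lines. For mouse number 17 the labels give wt for the hippocampus and the liver but Del/+ for the cerebellum, so counts without its hippocampus array are given below.

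The cerebellum develops from the hindbrain and the hippocampus from the telencephalon. Nearly all cerebellar neurons are small glutamatergic granule cells, whose parallel fibres contact the GABAergic Purkinje cells, and Bergmann glia line the Purkinje layer. The hippocampus is built of glutamatergic granule cells in the dentate gyrus and pyramidal cells in fields CA1, CA2 and CA3, with many kinds of GABAergic interneurons.

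Deposited values were log2 signals per probe set, so that 1 unit is a 2-fold difference. Median signals of the 14 arrays lay between 4.82 and 4.87. Over kept probe sets, arrays of the same region correlated at 0.961 to 0.977 and arrays of different regions at 0.844 to 0.867. Background was set at the 95th percentile of the signals of olfactory and vomeronasal receptor genes, at 4.03 in the cerebellum and 4.13 in the hippocampus. Signals are given from the lowest to the highest array, and differences as cerebellum minus hippocampus on the log2 scale ± SE. Where the mean of the dimmer region lay below that level, the fold is given as a lower limit, against the background level. Medians of lists and the order of genes use the measured differences, of which those against a region below background have no exact size. In dissected tissue, fewer cells of a type and less RNA in each cell cannot be told apart.

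Probe sets were kept when they were bright and variable enough over the 44 brain arrays, and 60.7% of the 19389 kept differed between the regions. Of the kept probe sets, 6570 (33.9%) were higher in the cerebellum and 5202 (26.8%) were higher in the hippocampus at an adjusted p below 0.05 (limma, two-sided, Benjamini-Hochberg). With a difference of at least 2-fold in addition, 1274 (6.57%) were higher in the cerebellum and 1490 (7.68%) in the hippocampus. Without hippocampus array 17 these counts were 6431, 5138, 1270 and 1490. Counted once per gene, 3552 of 9604 kept genes (37%) were higher in the cerebellum and 3759 (39.1%) in the hippocampus, 76.1% in all. At least 2-fold, 725 genes (7.55%) were higher in the cerebellum and 1202 (12.5%) in the hippocampus, 20.1% in all. The balance turned with the scaling, and after centring the arrays on reference genes 1485 probe sets were at least 2-fold higher in the cerebellum and 1346 in the hippocampus. The arrays of both regions did not overlap for 56.4% of kept genes. Any count of marker genes below is to be read against these shares. Lists and their members were chosen with earlier results of these data known, so their counts describe the lists and do not test them.

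**Figure D1:**
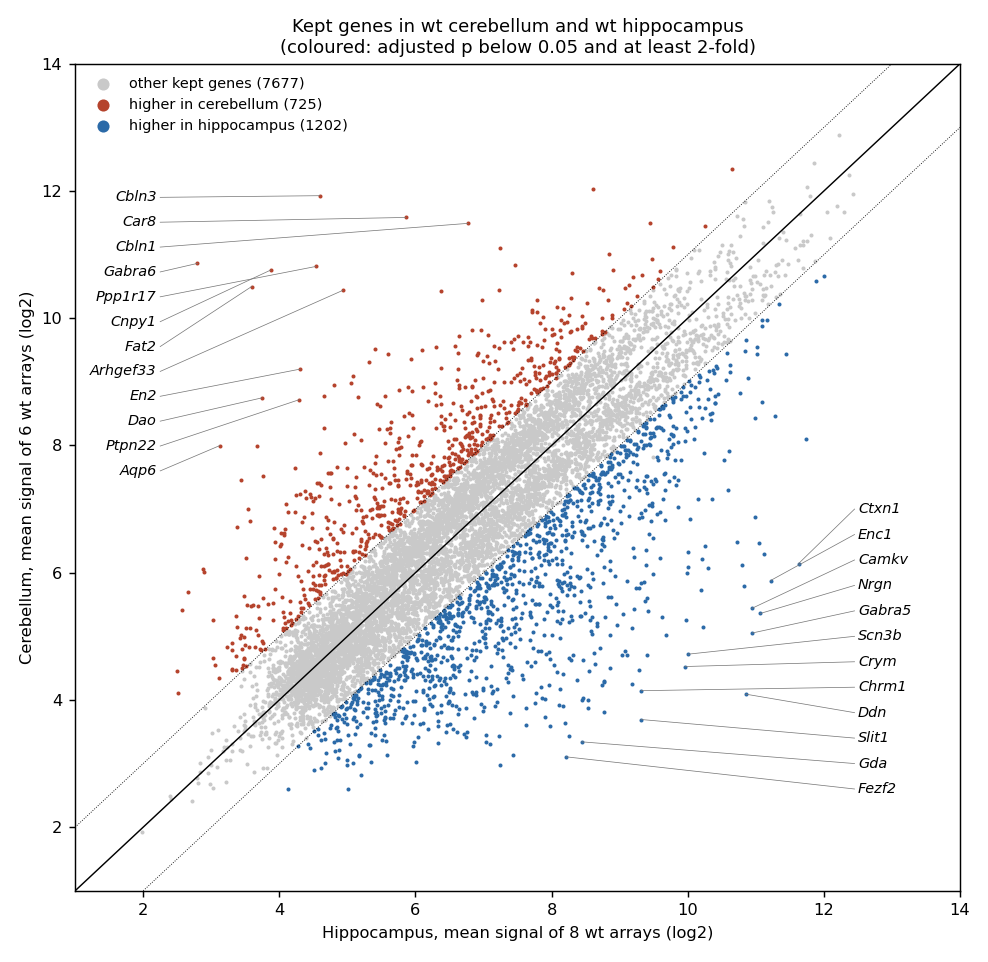
Mean log2 signal of 9604 kept genes in wt hippocampus (horizontal axis, 8 arrays) and wt cerebellum (vertical axis, 6 arrays), with the line of equal signal and dotted lines at a 2-fold difference. Coloured points are the 725 genes higher in cerebellum and the 1202 genes higher in hippocampus that passed the test with at least 2-fold, and the 12 largest differences in each direction are named.

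Genes were ranked by the brightest of their own probe sets, in both directions. The 12 genes with the largest differences in favour of the cerebellum included products of granule cells and Purkinje cells. A dimmer probe set of Kcnma1, described with the potassium channels, differed by 5.21. Gabra6, the alpha6 subunit of the GABA-A receptor of cerebellar granule cells, gave 10.74 to 11.03 (median 10.84) in the cerebellum and 2.53 to 3.17 (median 2.71) in the hippocampus. All hippocampal arrays were below background, and the cerebellar signal was at least 106-fold higher (adjusted p = 1.58e-16, limma). Cbln3, a cerebellin secreted by granule cells, gave 11.77 to 12.09 (median 11.94) and 4.29 to 5.16 (median 4.55). No array of one region came within 6 log2 units of the other region, and the difference was 7.33 ± 0.12 (adjusted p = 4.79e-16). Fat2, an atypical cadherin of parallel fibres, gave 10.35 to 10.74 (median 10.48) against 3.20 to 4.06 (median 3.48), at least 82.5-fold.

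Among Purkinje cell products, Ppp1r17, a phosphatase inhibitor and substrate of cGMP-dependent kinase, gave 10.63 to 10.90 (median 10.87) in the cerebellum and 4.14 to 4.79 (median 4.55) in the hippocampus. Car8, a carbonic anhydrase-related protein that binds the inositol trisphosphate receptor, gave 11.46 to 11.75 (median 11.57) and 5.54 to 6.21 (median 5.84). The differences of 6.28 ± 0.10 and 5.73 ± 0.10 correspond to 77.7-fold and 52.9-fold higher signals, and no array of one region came near those of the other. Arhgef33, a guanine nucleotide exchange factor, differed by 5.51 ± 0.09. Cnpy1, a canopy family member named for FGF signalling at the midbrain-hindbrain boundary in zebrafish, had the smallest p of all genes higher in the cerebellum (10.61 to 10.84, median 10.79, against 3.71 to 4.01, median 3.90, at least 98.8-fold, adjusted p = 4.15e-18).

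The rest of the 12 were of mixed function. En2, a homeobox factor of the midbrain-hindbrain territory, differed by 4.89 ± 0.11, and Cbln1, the granule cell organiser of the parallel fibre synapse, by 4.72 ± 0.08. Dao, which degrades D-serine, gave 8.41 to 8.92 (median 8.81) against 3.43 to 4.04 (median 3.75) and was at least 24.5-fold higher. Aqp6, an aquaporin best known from kidney, was at least 14.6-fold higher, and Ptpn22, a tyrosine phosphatase best known from lymphocytes, differed by 4.43 ± 0.08. Adjusted p-values of the 12 genes lay between 4.15e-18 and 1.11e-14. In the striatum of wt mice (8 arrays), the mean signals of all 12 lay within 1 log2 unit of those of the hippocampus.

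The 12 largest differences in favour of the hippocampus included synaptic proteins, a receptor subunit and a guidance ligand. Ddn, the postsynaptic protein dendrin, gave 10.65 to 11.01 (median 10.86) in the hippocampus and 3.78 to 4.38 (median 4.09) in the cerebellum, where the mean was close to background. The difference was -6.76 ± 0.10 (108-fold, adjusted p = 4.5e-16). Gabra5, the alpha5 subunit of extrasynaptic GABA-A receptors of hippocampal pyramidal cells, gave 10.78 to 11.02 (median 10.98) against 4.63 to 5.51 (median 5.06). Nrgn, the calmodulin-binding postsynaptic protein neurogranin, gave 10.94 to 11.18 (median 11.07) against 4.84 to 6.42 (median 5.16), and its cerebellar arrays spread more widely than its hippocampal arrays.

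Slit1, a guidance ligand of Robo receptors, gave 9.22 to 9.44 (median 9.30) against 3.26 to 4.21 (median 3.68) and was at least 39.1-fold higher in the hippocampus. Camkv, a kinase-like protein without kinase activity, and Ctxn1, the membrane protein cortexin, differed by -5.50 ± 0.11 and -5.49 ± 0.08, and Ctxn1 had the smallest p of all genes higher in the hippocampus (adjusted p = 4.5e-16). Crym, a thyroid hormone-binding protein, differed by -5.43 ± 0.12, and Enc1, an actin-binding kelch protein, by -5.34 ± 0.10. Scn3b, the beta3 subunit of sodium channels, differed by -5.29 ± 0.12 and Chrm1, the M1 muscarinic receptor, by -5.17 ± 0.12. Fezf2, a zinc finger factor of deep-layer cortical neurons, gave 7.96 to 8.37 (median 8.26) against 2.17 to 3.50 (median 3.26), at least 18.2-fold. Gda, the guanine deaminase cypin, was at least 21.3-fold higher. For 9 of these 12 genes the striatal mean lay within 1 log2 unit of the hippocampal mean, and for Gabra5, Slit1 and Fezf2 it lay lower, at 9.03 ± 0.27, 7.06 ± 0.26 and 6.29 ± 0.61 (SD, n = 8).

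**Figure D2:**
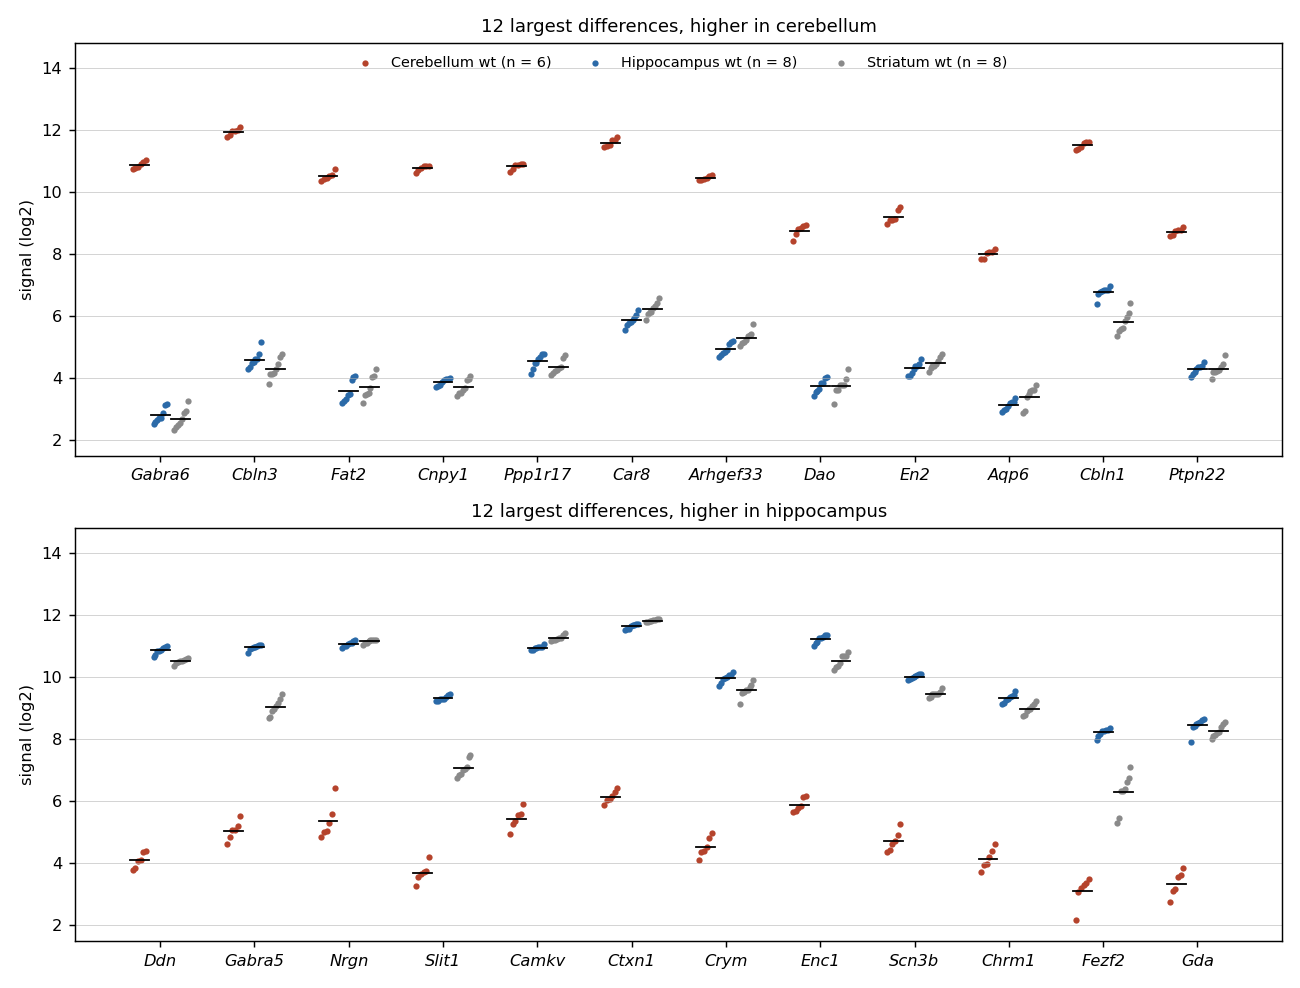
Log2 signal (vertical axis) of the 12 largest differences in favour of the cerebellum (top) and of the hippocampus (bottom) on each wt array, with a bar at the mean. No cerebellum array overlapped a hippocampus array for any of the 24 genes, and striatum arrays are shown beside them.

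Transcription factors of the hindbrain and of the forebrain lay on opposite sides. Of 34 hindbrain factors listed, 32 had a probe set of their own and 22 were kept. Of the kept factors, 21 were higher in the cerebellum and none in the hippocampus. Of the 32, 24 lay above background in the cerebellum and 11 in the hippocampus. A factor silent in the forebrain could pass the filter only when bright in the cerebellum, so the kept count does not test direction. Over the 32, kept or not, the median difference was 1.54, against 0.03 over all genes. En2 led, followed by Lhx1, a LIM homeobox factor of Purkinje cells (7.72 to 8.15, median 8.01, against 3.48 to 4.10, median 3.59, at least 14.5-fold), Barhl2, a homeobox factor of the granule cell lineage (4.12 ± 0.09), and Tfap2b, an AP-2 factor of cerebellar GABAergic neurons (at least 10.1-fold). The Zic zinc finger genes Zic1, Zic2, Zic4 and Zic5 were all higher in the cerebellum, by 3.87, 3.22, 2.21 and 2.65. Zic1 stood out for its spread in the hippocampus (6.37 to 8.33, median 7.41, against 10.94 to 11.25, median 11.10, in the cerebellum). Ptf1a, Atoh1, Gbx2 and Hoxb2, which act in the embryonic hindbrain, were not kept, and their mean signals were at most 4.05 in either region.

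Of 40 forebrain factors, 35 had a probe set of their own and 32 were kept, of which 26 were higher in the hippocampus and 1 in the cerebellum (median of the 35, -1.27). After Fezf2, the largest differences were those of Lmo3, a LIM-only protein (-4.81 ± 0.15), Bcl11b, a zinc finger factor of projection neurons (9.57 to 9.87, median 9.64, against 4.76 to 5.19, median 5.05), Egr3, an activity-regulated zinc finger factor (-4.49 ± 0.08), and Neurod6, a bHLH factor of pyramidal neurons (-4.05 ± 0.11). Emx2, Lhx2 and Tbr1, which pattern the embryonic cortex and hippocampus, were still higher in the adult hippocampus, Emx2 at least 6.6-fold, Tbr1 at least 4.95-fold and Lhx2 with a difference of -2.69. Id2, an inhibitor of bHLH factors, was the exception and was higher in the cerebellum (0.65 ± 0.07, adjusted p = 9.63e-07).

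**Figure D3:**
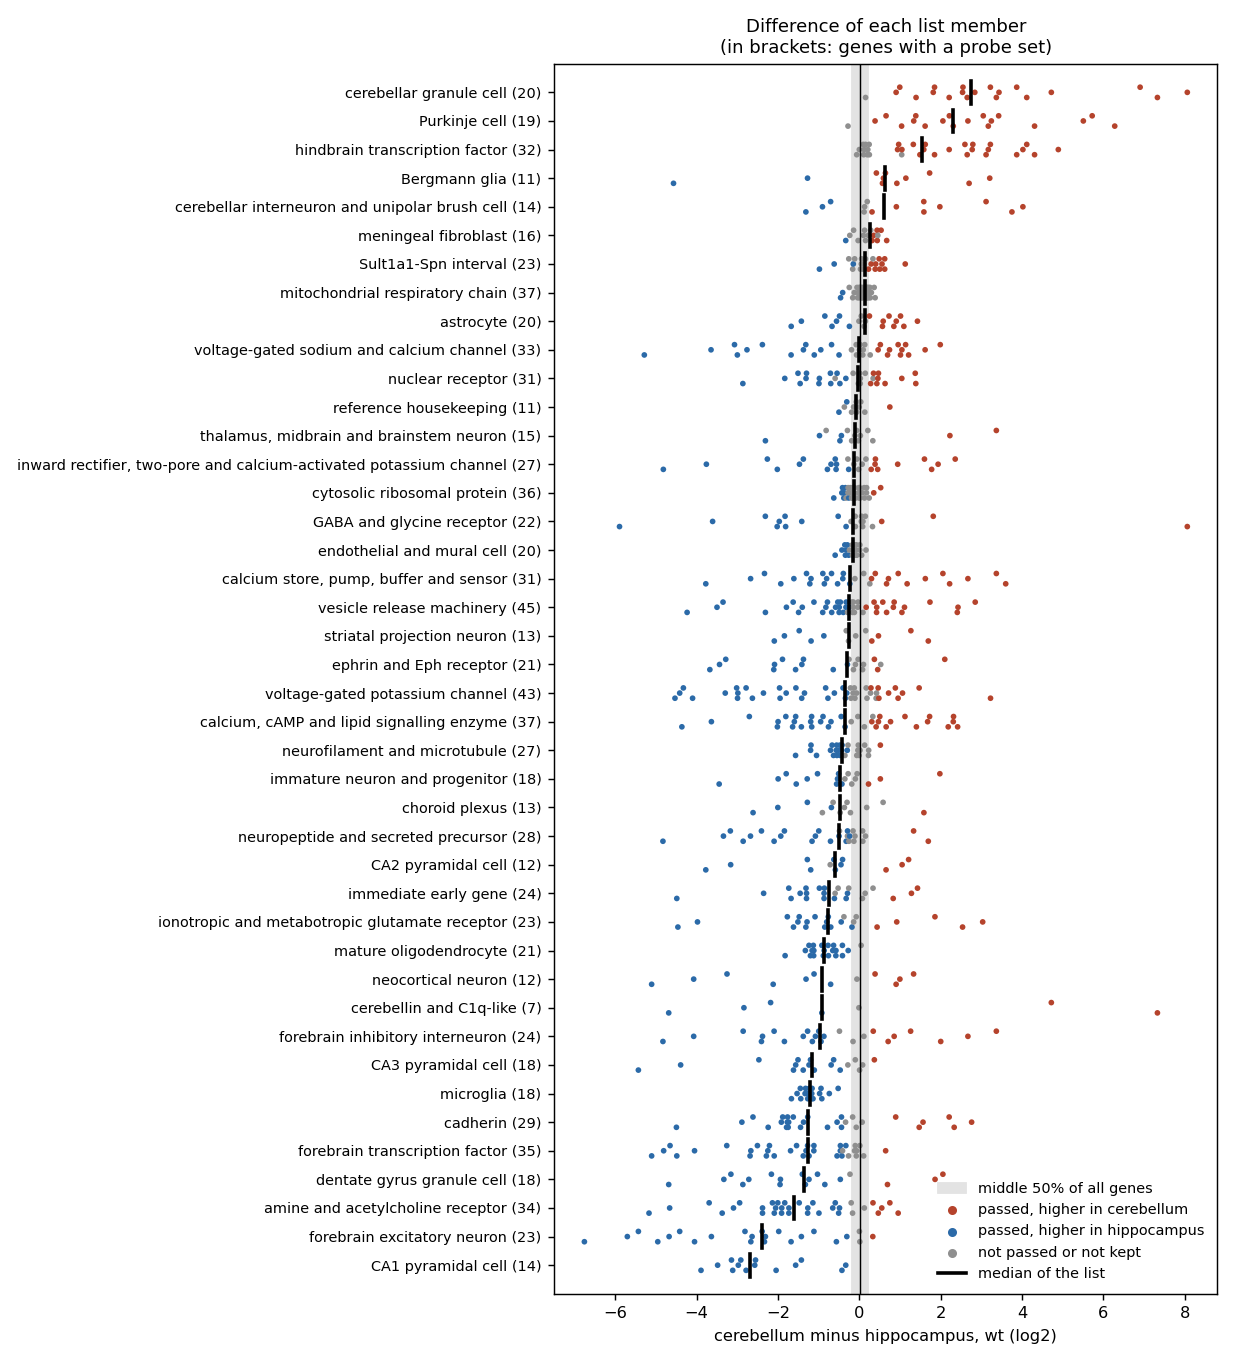
Difference of each list member between wt cerebellum and wt hippocampus (horizontal axis, log2), 1 row for each list, with a bar at the list median and a grey band for the middle 50% of all genes. The granule cell, Purkinje cell and hindbrain factor lists lie to the right, from 1.54 to 2.75 in their medians, and CA1 and forebrain excitatory lists lie farthest to the left, at -2.68 and -2.39.

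Kept markers of cerebellar granule cells and Purkinje cells were all higher in the cerebellum. A gene silent in hippocampus and striatum could be kept only when bright in the cerebellum, so these counts do not test direction. Of the 20 granule cell genes below, 19 lay above background in the cerebellum and 15 in the hippocampus. Of the 19 measured Purkinje cell genes, 18 and 15 did. Of 20 cerebellar granule cell genes, 19 were kept and all 19 were higher in the cerebellum, 17 of them at least 2-fold (median of the 20, 2.75). Besides the leading genes these included Chn2, a Rac-regulating protein, at 11.91 to 12.23 (median 12.02) against 8.42 to 8.80 (median 8.64). Calb2, the calcium buffer calretinin, differed by 3.37 ± 0.17, Pax6, a paired homeobox factor, by 2.84 ± 0.08, and Etv1, an ETS factor, by 0.90 ± 0.10. Atoh1, which is expressed in granule cell precursors, was the member not kept. Of 24 Purkinje cell genes, 19 had a probe set of their own and 18 were kept, and all 18 were higher in the cerebellum (median of the 19, 2.31). Slc1a6, the Purkinje cell glutamate transporter EAAT4, gave 9.47 to 9.68 (median 9.52) against 6.13 to 6.45 (median 6.33). Pcp4, a calmodulin regulator named for Purkinje cells, was high in both regions (12.80 to 12.98, median 12.87, against 11.96 to 12.58, median 12.21) and differed by only 0.66 ± 0.09. Calb1, the calcium buffer calbindin of Purkinje cells and of dentate granule cells, differed by 2.05 ± 0.09. Shh was not kept.

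Markers of less numerous cerebellar neurons were mixed. Of 14 genes of cerebellar interneurons and unipolar brush cells, 12 were kept, of which 8 were higher in the cerebellum and 3 in the hippocampus. Slc6a5, the glycine transporter GlyT2 of Golgi cells, gave 7.29 to 7.69 (median 7.55) against 3.36 to 4.14 (median 3.78), at least 10.5-fold. Eomes, a T-box factor of unipolar brush cells that also marks neuronal progenitors of the dentate gyrus, was at least 3.59-fold higher in the cerebellum. Grm2, the metabotropic receptor mGluR2 of Golgi and unipolar brush cells that is also found on hippocampal mossy fibres, was higher in the hippocampus (-1.32 ± 0.10).

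By number of genes, markers of the hippocampal fields were mostly higher in the hippocampus. Signals summed over the CA1 and CA3 lists were also higher there (medians 12.62 against 10.99 and 13.03 against 12.38, log2). Those summed over the dentate and CA2 lists were not (12.27 against 12.30 and 12.7 against 13.1). A sum weighs the brightest genes most. In the cerebellum, Calb1 of the dentate list gave 11.28 to 11.64 and Pcp4 of the CA2 list 12.80 to 12.98, and both are also on the Purkinje cell list. The median differences of the dentate and CA2 lists were -1.36 and -0.61. All 14 measured CA1 genes were kept and higher in the hippocampus, 12 of them at least 2-fold (median -2.68). Mpped1 gave 8.42 to 8.79 (median 8.65) against 4.42 to 4.86 (median 4.79), and Spink8 gave 6.54 to 7.24 (median 6.82) against 3.17 to 4.10 (median 3.74), at least 7.09-fold. Of 18 dentate gyrus genes, all kept, 14 were higher in the hippocampus and 3 in the cerebellum. C1ql2, a C1q-like protein of mossy fibres, gave 9.0 to 9.72 (median 9.35) against 4.37 to 5.05 (median 4.73) and a striatal mean of 5.53 ± 0.52. Dsp and Lct, further dentate granule cell markers, were at least 6.57-fold and 7.8-fold higher in the hippocampus. Calb1, Plk5 and Maml2 were the 3 dentate genes higher in the cerebellum. Prox1, the homeobox factor of dentate granule cells, differed by only -0.47 ± 0.10, with a cerebellar mean of 8.18.

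Of 18 CA3 genes, 16 were kept, with 13 higher in the hippocampus and 1 in the cerebellum. Crym and Cpne4, a copine, led, with a difference of -5.43 for Crym and an at least 15.5-fold higher hippocampal signal for Cpne4. Of 12 measured CA2 genes, 11 were kept, with 8 higher in the hippocampus and 3 in the cerebellum. Rgs14, a G protein regulator of CA2, differed by -3.16 ± 0.11. Pcp4, Stard5 and Cacng5 were higher in the cerebellum. Of 23 genes of forebrain excitatory neurons, 22 were kept, of which 20 were higher in the hippocampus and 1, Nptx1, in the cerebellum (median -2.39). Nptx1 did not pass with all 44 brain arrays in the fit (0.33, adjusted p = 0.0933, limma). Camk2a, the alpha subunit of calcium/calmodulin kinase II, differed by -3.64 ± 0.07.

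Genes of forebrain interneurons lay on both sides. Of 24 measured genes of forebrain interneurons, 22 were kept, of which 14 were higher in the hippocampus and 7 in the cerebellum. Somatostatin (Sst) gave 11.03 to 11.27 (median 11.12) in the hippocampus against 5.85 to 7.39 (median 6.03) in the cerebellum, a difference of -4.83 ± 0.20. Lamp5 and Vip were also higher in the hippocampus, Lamp5 with a difference of -4.07 and Vip at least 5.4-fold. The calcium buffers Calb2 and Pvalb, which Purkinje cells or other cerebellar neurons express, and the secreted protein Reln of granule cells were higher in the cerebellum, by 3.37, 2.67 and 2.0. The GABA-synthesising enzyme Gad1 was slightly higher in the cerebellum (0.34 ± 0.07).

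Receptor subunits for glutamate divided between the regions within each class. Of 23 measured genes, 22 were kept, with 15 higher in the hippocampus and 5 in the cerebellum (median -0.76). Among NMDA receptor genes, Grin2c was higher in the cerebellum (9.25 to 9.74, median 9.42, against 6.68 to 7.28, median 6.90). Grin2b was higher in the hippocampus (10.14 to 10.33, median 10.20, against 6.08 to 6.62, median 6.15), and Grin2a as well (-1.48 ± 0.07). Among AMPA receptor genes, Gria4 was higher in the cerebellum (1.86 ± 0.06), whereas Gria1, Gria2 and Gria3 were higher in the hippocampus, with differences of -0.76, -0.70 and -0.85. Among metabotropic receptors, Grm4, which acts on parallel fibre terminals, gave 8.71 to 9.11 (median 8.95) in the cerebellum and 5.56 to 6.49 (median 5.87) in the hippocampus. Grm5 went the other way, with 10.03 to 10.30 (median 10.20) in the hippocampus and 5.50 to 5.85 (median 5.75) in the cerebellum (22-fold, adjusted p = 4.5e-16).

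GABA and glycine receptor genes showed the widest span of the 42 lists, from -5.90 to 8.06. Of 22 measured GABA and glycine receptor genes, 17 were kept, with 10 higher in the hippocampus and 3 in the cerebellum. The cerebellar genes were Gabra6, Gabrd, the delta subunit that joins alpha6 in extrasynaptic receptors of granule cells (8.27 to 8.55, median 8.38, against 6.38 to 6.99, median 6.55), and Gabrb2 (0.55 ± 0.05). Besides Gabra5, the hippocampal genes included Gabrg3 (8.17 to 8.36, median 8.25, against 4.45 to 4.78, median 4.67), Gabra3, Gabra4 and Gabra2, which differed by -2.02, -1.83 and -1.81. The GABA-B receptor gene Gabbr1 was not kept and had means of 10.86 and 10.96.

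**Figure D4:**
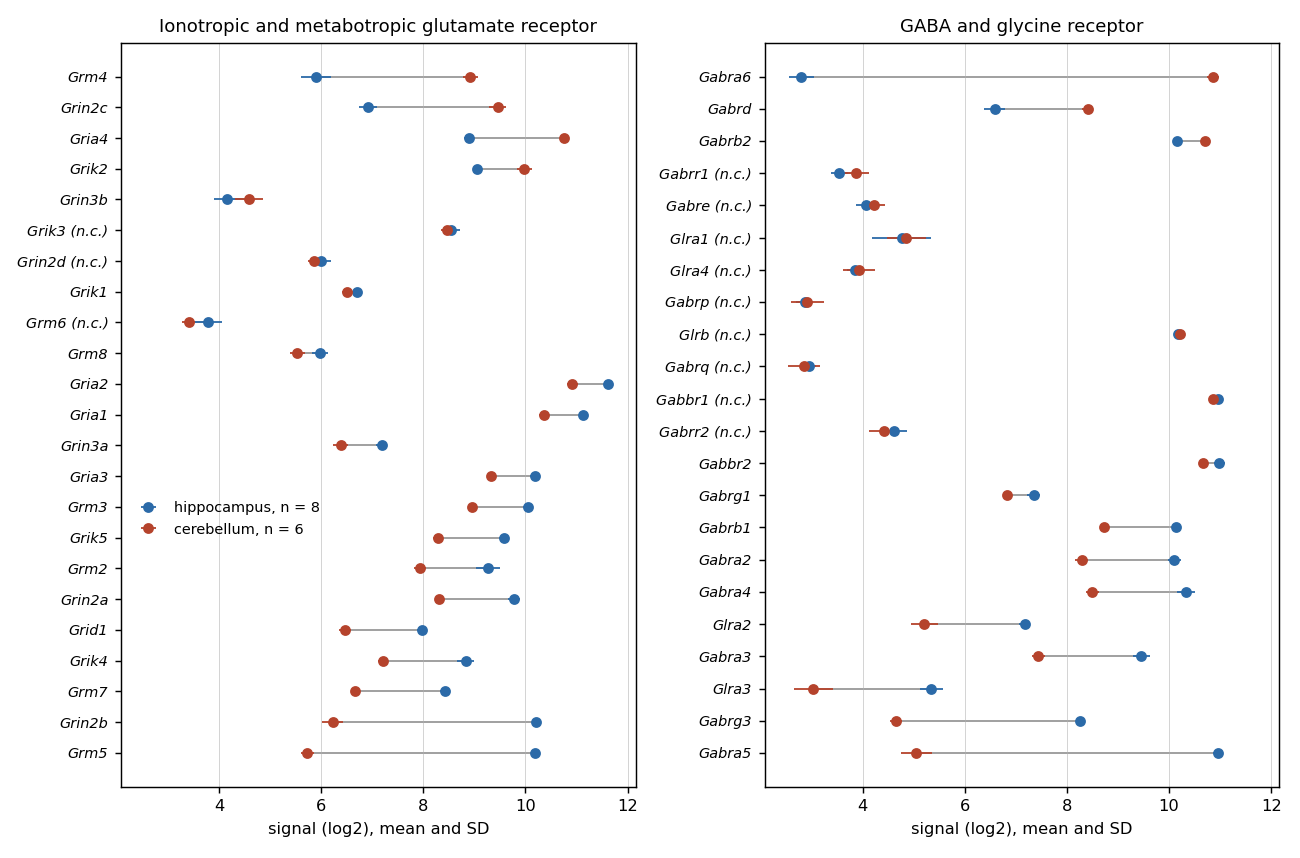
Mean log2 signal and SD (horizontal axis) of glutamate receptor genes (left) and GABA and glycine receptor genes (right) in wt cerebellum (6 arrays) and wt hippocampus (8 arrays), ordered by their difference. Genes marked n.c. were not called or not kept, and Gabra6 and Gabra5 lie at opposite ends of the right panel.

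The promoters of Gabra6 and Gabra5 are shown because these alpha subunits of the same receptor lay at opposite ends of the comparison. Each runs 5′ to 3′ from 250 bases before to 50 bases after the annotated start (RefSeq, GRCm38.p6), with matches to any motif searched in capitals.
Gabra6, chr11:42321023-42321322, minus strand: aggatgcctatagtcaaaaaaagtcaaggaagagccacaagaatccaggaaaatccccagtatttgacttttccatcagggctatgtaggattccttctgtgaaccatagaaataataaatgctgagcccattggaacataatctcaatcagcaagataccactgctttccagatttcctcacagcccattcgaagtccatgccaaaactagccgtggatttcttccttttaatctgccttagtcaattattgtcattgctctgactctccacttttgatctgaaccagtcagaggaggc
Gabra5, chr7:57510010-57510309, minus strand: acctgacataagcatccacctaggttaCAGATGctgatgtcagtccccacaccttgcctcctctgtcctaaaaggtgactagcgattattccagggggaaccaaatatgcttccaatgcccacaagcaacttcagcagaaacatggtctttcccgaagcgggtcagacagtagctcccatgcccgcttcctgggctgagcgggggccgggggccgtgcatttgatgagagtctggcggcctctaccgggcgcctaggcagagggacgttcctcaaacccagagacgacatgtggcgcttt
Both strands were searched for 7 motifs. Of the promoters of 27025 genes, TGACGTCA was in 2.03%, the E-box CAGCTG in 18.3%, its variant CATCTG in 19.2%, TAGGTCA in 2.97% and TAATTA in 6.12%. A MEF2-type motif was in 4.23% and an NFI-type motif in 0.0444%. None of the 7 was found in the Gabra6 window, and CATCTG was found in that of Gabra5, on the opposite strand. Of the 24 leading genes, 14 had a promoter in the table, of which 3 held CAGCTG, 3 held CATCTG, 1 held TAATTA and none held any of the others.

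Cerebellins and C1q-like proteins, which are secreted and bridge presynaptic and postsynaptic partners, also split within their family. Of 7 measured genes, 6 were kept. Cbln3 and Cbln1 were higher in the cerebellum and C1ql2, Cbln4, Cbln2 and C1ql1 were higher in the hippocampus, with differences of -4.69 for C1ql2 and -0.92 for C1ql1 and at least 6.02-fold for Cbln4 and 4.51-fold for Cbln2. Cbln4 spread over the hippocampus arrays (5.19 to 7.24, median 6.66, against 3.47 to 4.11, median 3.74, in the cerebellum) but did not overlap. C1ql4 was not kept and C1ql3 was not analysed here.

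Most potassium channel genes that differed were higher in the hippocampus. Of 43 measured voltage-gated channel genes, 39 were kept, with 23 higher in the hippocampus and 9 in the cerebellum. Kcng4, a silent subunit that modifies Kv2 channels, was the largest in favour of the cerebellum (8.66 to 8.89, median 8.78, against 5.23 to 5.80, median 5.61), followed by Kcnc1, the fast Kv3.1 channel (1.47 ± 0.07). Kcnip2, an auxiliary subunit of A-type channels, gave 8.30 to 8.70 (median 8.55) in the hippocampus against 3.64 to 4.26 (median 4.09) and was at least 22.8-fold higher, while its relatives Kcnip1 and Kcnip4 were higher in the cerebellum by 1.06 and 0.95. Kcnq5 and Kcnq3, subunits of the M current that muscarinic receptors close, were higher in the hippocampus (-4.33 ± 0.10 and -2.63 ± 0.07), and Kcnc2 as well (-4.10 ± 0.13). For Kcna4, an A-type channel, the brighter probe set did not pass (means 7.68 and 7.51), whereas the other had means of 4.30 and 8.03 and passed in favour of the hippocampus (-3.73 ± 0.10).

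Of 27 measured inward rectifier, tandem-pore-domain and calcium- or sodium-activated channel genes, 23 were kept, with 12 higher in the hippocampus and 9 in the cerebellum. The related sodium-activated channels Kcnt1 and Kcnt2 lay on opposite sides. Kcnt1 was higher in the cerebellum (1.78 ± 0.07) and Kcnt2 in the hippocampus (8.01 to 8.38, median 8.28, against 2.98 to 3.73, median 3.49). By the brightest probe set of each gene, Kcnk10 led the cerebellar members (2.36 ± 0.06). For Kcnma1, the large-conductance calcium-activated channel, 2 probe sets gave different answers. The brighter was not kept (means 9.95 and 10.24), and the other gave 8.70 ± 0.24 in the cerebellum and 3.49 ± 0.15 in the hippocampus (SD, n = 6 and 8 arrays). The difference of this dimmer probe set was 5.21 ± 0.11 (SE, adjusted p = 4.98e-15, limma), larger than that of Kcnk10.

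Of 33 measured sodium and calcium channel genes, 27 were kept, with 13 higher in the hippocampus and 11 in the cerebellum. Scn3b led on the side of the hippocampus, followed by Cacna1h, a T-type channel (7.75 to 8.27, median 8.14, against 4.25 to 4.71, median 4.38), Scn3a (-3.07 ± 0.14) and the AMPA receptor auxiliary subunits Cacng8 and Cacng3 (-3.0 and -2.76). Another T-type channel, Cacna1g, was higher in the cerebellum (1.62 ± 0.10), as were the auxiliary subunit Cacna2d2 (9.10 to 9.28, median 9.19, against 7.04 to 7.50, median 7.17), the P/Q-type channel Cacna1a of Purkinje cells (1.05 ± 0.06) and Fgf14, a sodium channel-binding protein (1.14 ± 0.06). Scn8a, a sodium channel of the axon initial segment, was not kept (means 9.25 and 9.44).

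Genes of calcium handling and second messengers were found on both sides. Of 31 measured store, pump, buffer and sensor genes, 30 were kept, with 16 higher in the hippocampus and 12 in the cerebellum. Atp2a3, the SERCA3 calcium pump, gave 8.60 to 8.93 (median 8.75) in the cerebellum and 4.80 to 5.36 (median 5.22) in the hippocampus. The neuronal calcium sensors split, Hpcal1 being higher in the cerebellum (2.22 ± 0.09) and Hpcal4 and Hpca in the hippocampus (-2.67 ± 0.09 and -2.33 ± 0.11). Necab2, a neuronal calcium-binding protein, gave 9.05 to 9.30 (median 9.23) against 5.20 to 5.63 (median 5.46). For Ryr1, a calcium release channel of the store, probe sets disagreed, and the brighter was higher in the cerebellum (0.96 ± 0.12) and the dimmer in the hippocampus (-0.71 ± 0.07).

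Of 37 measured signalling enzymes, 36 were kept, with 19 higher in the hippocampus and 14 in the cerebellum. Isoforms of the same enzyme fell on both sides. The calmodulin-dependent phosphodiesterases Pde1a and Pde1b were higher in the hippocampus, with 8.62 to 9.12 (median 8.87) against 4.34 to 4.71 (median 4.49) for Pde1a, and Pde1c was higher in the cerebellum (2.32 ± 0.16). Phospholipase C beta genes followed suit, Plcb1 being higher in the hippocampus (-1.57 ± 0.08) and Plcb4 and Plcb3 in the cerebellum (2.31 ± 0.14 and 1.40 ± 0.06). Camk4, a nuclear calmodulin kinase of granule cells, differed by 1.73 ± 0.06, and Inpp5a, an inositol trisphosphate phosphatase of Purkinje cells, gave 10.66 to 10.75 (median 10.72) against 8.10 to 8.66 (median 8.25). Pde5a, which degrades cGMP, was higher in the cerebellum (2.19 ± 0.06) and Pde2a in the hippocampus (-2.71 ± 0.05).

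Genes of vesicle release also lay on both sides, with a synaptotagmin at either end. Of 45 measured genes, 37 were kept, with 22 higher in the hippocampus and 14 in the cerebellum. Snap25, Vamp2, Cplx1 and Rab3a were not kept, and their mean differences of -0.15, -0.29, -0.18 and -0.04 had no test. Syt2, a fast calcium sensor, gave 9.76 to 9.92 (median 9.79) in the cerebellum and 6.54 to 7.33 (median 6.99) in the hippocampus, and Syt9, also a synaptotagmin, differed by 2.43 ± 0.16. Unc13c, the Munc13-3 priming factor of granule cells, differed by 2.41 ± 0.15, whereas its relative Unc13b was higher in the hippocampus (-1.79 ± 0.09). Syt5 gave 10.51 to 10.90 (median 10.74) in the hippocampus against 6.0 to 6.95 (median 6.59), and Stx1a, a plasma membrane SNARE, differed by -3.50 ± 0.08. The vesicular glutamate transporters Slc17a7 and Slc17a6 were both higher in the hippocampus (-1.12 ± 0.06 and -2.31 ± 0.32). Slc17a6 is also a gene of thalamus, midbrain and brainstem neurons, a list whose summed signal ran from 9.51 to 11.18 over the hippocampus arrays (log2). The part of neighbouring tissue in the Slc17a6 difference was not tested. The vesicular GABA transporter Slc32a1 was higher in the cerebellum (0.86 ± 0.07).

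Of the receptor lists, that of amines and acetylcholine had the lowest median. Of 34 measured genes, 33 were kept, with 26 higher in the hippocampus and 5 in the cerebellum (median -1.61). Of the muscarinic receptors, Chrm3 gave 8.33 to 8.68 (median 8.54) in the hippocampus and 3.06 to 4.44 (median 3.89) in the cerebellum, at least 22.7-fold, and all of Chrm1 to Chrm5 passed in the same direction. Of the serotonin receptors, Htr1a gave 6.77 to 7.23 (median 7.08) against 2.73 to 4.13 (median 3.22), at least 8.06-fold, and Htr4, Htr2a and Htr2c differed by -3.37, -3.10 and -2.94. In the cerebellum, Htr2c was highest in mice 49 and 16 (5.25 and 5.62, against 3.82 to 4.28 in the others). The choroid plexus gene Kl was highest on the same arrays (7.24 and 6.80, against 4.06 to 4.77). The part of choroid plexus in the Htr2c signal was not tested. The 5 genes higher in the cerebellum were the nicotinic subunits Chrna3, Chrnb4 and Chrnb2 (0.75, 0.95 and 0.55) and the receptors Htr1b and Drd4 (0.47 and 0.33). All of these differed by less than 2-fold, and Drd4 did not pass without the cerebellum array of mouse 10 (0.30) or 20 (0.26). It also did not pass after centring the arrays on the median of kept probe sets (0.27, adjusted p = 0.0795, limma).

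Neuropeptide precursors that differed were mostly higher in the hippocampus. Of 28 measured genes, 23 were kept, with 17 higher in the hippocampus and 2 in the cerebellum. After Sst, the largest differences were those of Grp, gastrin-releasing peptide (7.77 to 8.21, median 7.92, against 4.18 to 5.03, median 4.67), the binding protein Crhbp (-3.17 ± 0.09) and Vip. Vgf and Cck, cholecystokinin, followed (-2.68 ± 0.07 and -2.41 ± 0.08). The 2 genes higher in the cerebellum were Penk, proenkephalin, with 9.62 to 10.06 (median 9.81) against 7.95 to 8.37 (median 8.10), and Nxph4, a neurexophilin (1.33 ± 0.11). The tyrosine hydroxylase gene Th, from the list of midbrain and brainstem neurons, was also higher in the cerebellum (6.29 to 7.02, median 6.75, against 4.02 to 5.32, median 4.34).

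Adhesion and guidance genes that differed were mostly higher in the hippocampus. Of 29 cadherins, all measured, 25 were kept, with 19 higher in the hippocampus and 6 in the cerebellum (median -1.27). Cdh15, M-cadherin, gave 7.07 to 7.65 (median 7.38) in the cerebellum and 4.37 to 4.73 (median 4.64) in the hippocampus, and Cdh7 and Cdh18 differed by 2.33 and 2.21. Cdh9, an adhesion molecule of mossy fibre synapses onto CA3, gave 8.56 to 9.01 (median 8.70) against 3.92 to 4.77 (median 4.14). Of 21 measured ephrin and Eph receptor genes, 15 were kept, with 11 higher in the hippocampus and 3 in the cerebellum. Epha6 gave 9.84 to 10.14 (median 10.03) in the hippocampus against 6.07 to 6.67 (median 6.31), and Epha5 and Epha4 followed (-3.44 ± 0.11 and -3.29 ± 0.06). Epha8 was the largest in favour of the cerebellum (2.10 ± 0.15).

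Immediate early genes were measured in untreated mice and leaned to the hippocampus with exceptions. Of 24 genes, all kept, 15 were higher in the hippocampus and 3 in the cerebellum (median -0.74). Egr3 gave 8.64 to 9.09 (median 8.72) against 4.13 to 4.43 (median 4.26), and the postsynaptic gene Arc differed by -1.68 ± 0.18. Fos, Dusp1 and Ier2 were higher in the cerebellum. Fos ran from 4.25 to 6.82 (median 6.45) in the cerebellum and from 3.60 to 5.83 (median 4.86) in the hippocampus, and the arrays overlapped (difference 1.43 ± 0.42, adjusted p = 0.00794). Dusp1, a phosphatase of MAP kinases, did not overlap (1.28 ± 0.18).

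Of 27 neurofilament and microtubule genes, 18 were kept, with 16 higher in the hippocampus and 1, Stmn2, in the cerebellum, and the largest difference was that of Tubb2a, a beta tubulin (-1.57 ± 0.11). Genes of immature neurons and progenitors were higher in the hippocampus for 10 of 15 kept of 18 measured, and higher in the cerebellum for 3. Dcx, the microtubule protein doublecortin of young neurons, gave 6.60 to 7.17 (median 6.93) against 4.51 to 5.41 (median 4.87), and Ccnd2, the cyclin of dentate progenitors, differed by -3.45 ± 0.14. Mki67 and Top2a, which mark dividing cells, were not kept, with means between 3.24 and 4.14. Of 31 measured nuclear receptors, 26 were kept, with 13 higher in the hippocampus and 9 in the cerebellum. Rora, the orphan receptor required by Purkinje cells in mice, gave 9.27 to 9.47 (median 9.37) against 7.59 to 8.61 (median 7.93), and Esrrg and Esrrb were also higher in the cerebellum (1.37 ± 0.07 and at least 1.96-fold). Nr2e1, a receptor of neural stem cells, was at least 6.53-fold higher in the hippocampus, and Nr3c2, the mineralocorticoid receptor, differed by -1.51 ± 0.09.

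Glial genes also differed between the regions. All 18 measured microglial genes were kept and higher in the hippocampus (median -1.21). P2ry12, the purinergic receptor of resting microglia, gave 7.49 to 7.84 (median 7.70) in the hippocampus against 5.87 to 6.22 (median 6.02) in the cerebellum, and Csf1r, the receptor on which microglia depend, differed by -1.53 ± 0.07. Of 21 measured genes of mature oligodendrocytes, 20 were kept and all 20 were higher in the hippocampus (median -0.87). Opalin gave 7.64 to 8.39 (median 8.13) against 5.89 to 6.51 (median 6.21), and Mbp, myelin basic protein, differed by -0.63 ± 0.06. Per array, the mean over the microglial list was 5.48 to 5.59 in the cerebellum and 6.66 to 6.79 in the hippocampus, and that over the oligodendrocyte list was 7.79 to 8.04 and 8.60 to 8.99, without overlap in either.

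Astrocyte genes were divided, with 9 of 16 kept higher in the cerebellum and 7 in the hippocampus. S100b, a calcium-binding protein, gave 9.12 to 9.37 (median 9.22) in the cerebellum and 7.61 to 7.98 (median 7.81) in the hippocampus, and the water channel Aqp4 differed by 0.85 ± 0.06. The glutamate transporter Slc1a2 and the filament gene Gfap were higher in the hippocampus (-1.68 ± 0.07 and -1.43 ± 0.11), while the other transporter, Slc1a3, was higher in the cerebellum (0.57 ± 0.05). Of 11 Bergmann glia genes, all kept, 9 were higher in the cerebellum and 2 in the hippocampus. Gdf10, a BMP family ligand of Bergmann glia, gave 8.85 to 9.16 (median 8.96) against 6.02 to 6.60 (median 6.27), and A2m differed by 3.21 ± 0.16. Npy2r, which hippocampal neurons also express, was the largest in favour of the hippocampus (at least 18-fold). Of 20 endothelial and mural genes, 10 were kept and 7 were higher in the hippocampus, none by 2-fold. Cldn5, the claudin of the blood-brain barrier, did not pass (means 6.03 and 6.14, adjusted p = 0.513).

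**Figure D5:**
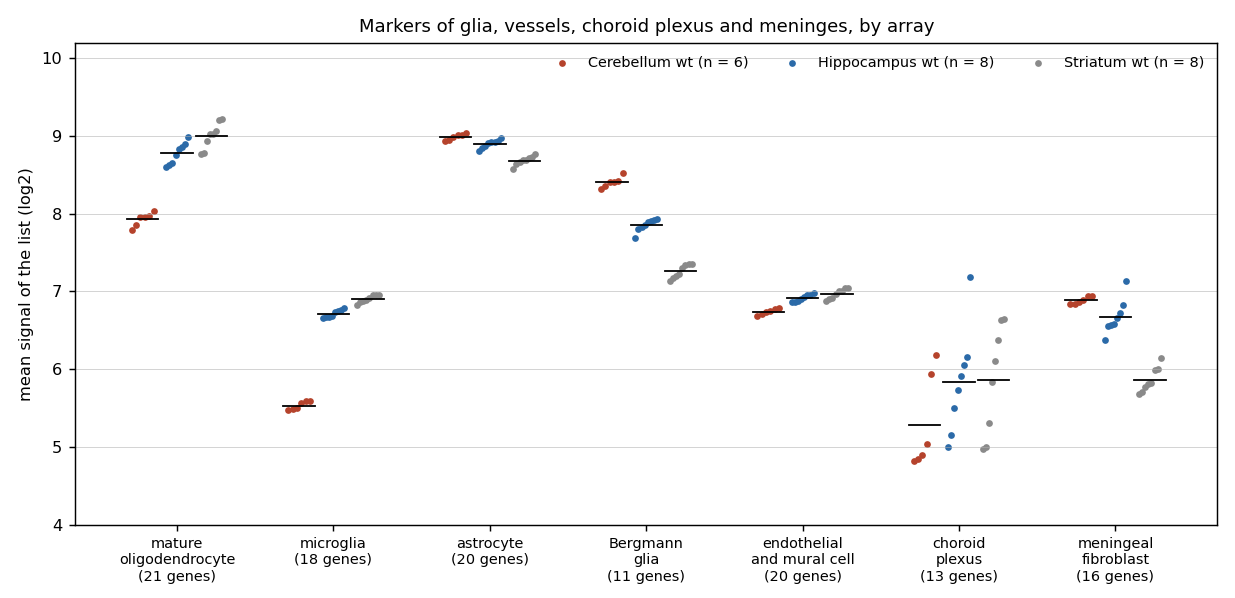
Mean log2 signal over the measured genes of each marker list (vertical axis) on each wt array of cerebellum, hippocampus and striatum, with a bar at the mean of the region. Microglial and oligodendrocyte means separate the cerebellum from the hippocampus, and choroid plexus means spread over more than 1 log2 unit within each region.

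Markers of neighbouring tissue varied from array to array. Of 13 measured choroid plexus genes, 12 were kept, with 4 higher in the hippocampus and 1 in the cerebellum. Ttr, the transthyretin made by choroid plexus, ran from 7.33 to 12.18 (median 8.82) in the cerebellum and from 9.22 to 12.86 (median 11.92) in the hippocampus, and the regions overlapped (difference -2.0 ± 0.83, adjusted p = 0.0473). It no longer passed without the cerebellum array of mouse 10, 20, 25 or 48 or the hippocampus array of mouse 6, 16, 17, 29, 35 or 56, with differences between -2.03 and -1.58. It also did not pass without the filter on probe sets, after renewed quantile normalization, after centring on reference genes or with the mouse number as a block, with adjusted p-values between 0.0505 and 0.0698 (limma). Kl, the choroid plexus gene klotho that neurons also express, differed by -2.61 ± 0.49. The summed signal of the list spanned 9.17 to 12.44 in the cerebellum and 10.01 to 13.18 in the hippocampus (log2). Otx2 was the choroid gene higher in the cerebellum (1.59 ± 0.30), and granule and unipolar brush cells express it too. The part of choroid plexus in the other differences was not tested.

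Of 15 measured genes of thalamus, midbrain and brainstem neurons, 10 were kept, with 2 higher in the cerebellum and 4 in the hippocampus. The thalamic factor Tcf7l2 ran over 5.49 to 8.01 (median 6.39) in the hippocampus, and did not pass (adjusted p = 0.0608), but passed without the hippocampus array of mouse 6, 16, 29 or 56 (-0.96 to -0.90). Prkcd, a kinase of thalamic neurons, ran over 6.84 to 9.88 (median 8.20). Both were highest on the hippocampus array of mouse 17. Of 12 neocortical genes, all kept, 7 were higher in the hippocampus and 4 in the cerebellum, with Fezf2, Lamp5 and Tshz2 in the lead. Of 13 measured genes of striatal projection neurons, all kept, 5 were higher in the hippocampus and 4 in the cerebellum. Of 16 meningeal genes, all kept, 6 were higher in the cerebellum and 1 in the hippocampus, and none differed by 2-fold.

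Genes of basic cell function served as a contrast. Of 37 measured genes of the mitochondrial respiratory chain, only 3 varied enough over the brain arrays to be kept, of which 2 were higher in the hippocampus, and all 37 differences lay between -0.46 and 0.39. Of 36 measured ribosomal protein genes, 18 were kept, with 7 higher in the hippocampus and 2 in the cerebellum, and none differed by 2-fold. Of the 11 measured reference genes 3 were kept. Ywhaz and Actb were higher in the hippocampus (-0.50 ± 0.05 and -0.31 ± 0.09) and Tbp, the TATA-binding protein, was higher in the cerebellum (8.70 to 9.10, median 8.99, against 8.11 to 8.28, median 8.20, 0.75 ± 0.07). Centring each array on these reference genes moved the median difference of all kept probe sets from 0.11 to 0.18.

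By the genotype labels, the genes of the Sult1a1-Spn interval are present in their usual number of copies in these mice. Of 27 genes listed, 23 had a probe set of their own and 20 were kept, of which 10 were higher in the cerebellum and 3 in the hippocampus (median of the 23, 0.15). Kctd13, an adaptor of a ubiquitin ligase, gave 9.65 to 9.97 (median 9.78) in the hippocampus against 8.75 to 8.88 (median 8.83) in the cerebellum (difference -0.98 ± 0.06). Coro1a, an actin-binding protein, was also higher in the hippocampus (-0.62 ± 0.09). Prrt2, a presynaptic regulator of release, was higher in the cerebellum (0.62 ± 0.06), and Pagr1a was the only one past 2-fold (4.43 to 6.32, median 5.44, against 4.01 to 4.94, median 4.19, overlapping).

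MicroRNA loci were examined after the values had been seen. These probe sets read RNA from the locus of the hairpin, not the mature microRNA. Of 478 microRNA genes that had their own probe set, 233 were kept, of which 70 were higher in the cerebellum and 48 in the hippocampus. In the RefSeq miRNA table (GRCm38.p6), 420 of the 478 were matched, and 5 seeds (bases 2 to 8 of the mature sequence, in capitals) were shared by at least 4 kept genes. A member of each seed is printed, with further members of some families whose sequences differ beyond the seed.
mmu-let-7c-5p: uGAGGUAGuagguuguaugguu
mmu-miR-181b-5p: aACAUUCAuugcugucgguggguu
mmu-miR-497a-5p: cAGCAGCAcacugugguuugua
mmu-miR-15a-5p: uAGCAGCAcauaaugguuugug
mmu-miR-30c-5p: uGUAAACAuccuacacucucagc
mmu-miR-384-5p: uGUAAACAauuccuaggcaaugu
mmu-miR-344-5p: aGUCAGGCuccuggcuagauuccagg

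Loci of the AGCAGCA seed, the miR-15 and miR-16 family, were higher in the cerebellum for all 5 kept of 6. Mir497 on chromosome 11 gave 5.0 to 5.96 (median 5.49) in the cerebellum and 3.19 to 3.87 (median 3.64) in the hippocampus, and Mir15a on chromosome 14 gave 9.08 to 9.61 (median 9.31) and 8.11 to 8.44 (median 8.29). All 4 kept loci of the GUAAACA seed (miR-30 and miR-384) and all 4 kept loci of the GUCAGGC seed (miR-344) were also higher in the cerebellum. Mir30c-2 differed by 1.30 ± 0.15, Mir384 by 0.87 ± 0.15 and Mir344 by 1.22 ± 0.07. The miR-344 loci lie on chromosome 7 and share sequence, and the other families also hold pairs of neighbouring loci, so the loci of a family are not independent.

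Other seeds held loci on both sides. Of 12 loci with the let-7 seed GAGGUAG, 7 were kept, with 6 higher in the cerebellum and 1 in the hippocampus. The identical mature let-7c comes from loci that went opposite ways. Mirlet7c-2 on chromosome 15 gave 7.16 to 7.86 (median 7.57) in the cerebellum and 5.47 to 6.30 (median 5.87) in the hippocampus. Mirlet7c-1 on chromosome 16 gave 4.29 to 5.29 (median 4.99) and 5.04 to 6.11 (median 5.51), and its arrays overlapped (differences 1.63 ± 0.13 and -0.69 ± 0.20, adjusted p = 2.67e-08 and 0.00838). The loci of miR-181b did the same, Mir181b-1 on chromosome 1 being higher in the cerebellum (1.0 ± 0.09) and Mir181b-2 on chromosome 2 in the hippocampus (-0.36 ± 0.12, adjusted p = 0.0188). Mir181b-2 did not pass without the cerebellum array of mouse 10 (-0.28) or with all 44 brain arrays in the fit (-0.36, adjusted p = 0.0517, limma). Of the 6 loci with that seed, ACAUUCA, all kept, 3 were higher in the cerebellum and 1 in the hippocampus.

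The same regions were compared on other arrays, from mice with 1 or 3 copies of the interval. In Del/+ mice (3 cerebellum and 4 hippocampus arrays), 9139 of the 19389 probe sets passed, and in Dup/+ mice (3 and 4 arrays) 8826 passed. Without the cerebellum array of mouse 17, 8481 passed in Del/+ mice. Of the 1274 probe sets at least 2-fold higher in wt cerebellum, 1266 had the same direction and 1182 passed in Del/+ mice, and 1270 and 1167 in Dup/+ mice. Of the 1490 at least 2-fold higher in wt hippocampus, 1484 and 1450 did so in Del/+ mice and 1488 and 1454 in Dup/+ mice. All 24 leading genes passed in the same direction in both genotypes. Gabra6 differed by 7.84 in Del/+ and 8.19 in Dup/+ mice, and Ddn by -7.28 and -7.18.

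A direct test of whether the difference between the regions itself differed with genotype, over 28 arrays in 1 fit, called 0 probe sets for Del/+ against wt and 0 for Dup/+ against wt (limma, adjusted p below 0.05). At an unadjusted p below 0.05 there were 935 (4.82%) and 809 (4.17%). The smallest adjusted p-values were 0.0555 for Slc15a2, a peptide transporter gene (change of -1.32 in the difference in Del/+ mice), and 0.125 for Tafa2, a secreted protein (0.69 in Dup/+ mice). These genes were chosen by their p after the values were seen. The labels name no plate or batch. When the running array numbers were divided into 3 blocks of up to 24, 1270 of the 1274 and 1489 of the 1490 probe sets had the same direction in every block. These probe sets were called on the same arrays, so this agreement was largely fixed in advance and does not test for a batch.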

How the data were processed

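Dissected regions were profiled on the Mouse Gene 2.1 ST array of Affymetrix. The deposited values were log2 signals per probe set, which the authors quantile normalized over the 44 brain arrays with Affymetrix Expression Console; the version, background correction and probe summary were not given in the sources used here, and the log2 scale was read from the range of the values (0.83 to 13.57). Following the study's methods, 19389 of 41155 probe sets were kept, those whose highest signal reached the median of all (4.85) and whose variance exceeded the 25th percentile. The regions were compared with limma 3.58.1 in R 4.3.3 (lmFit and eBayes, two-sided, Benjamini-Hochberg over kept probe sets), at an adjusted p below 0.05 and, as a stricter rule, with at least 2-fold. The script was tested on simulated data.

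Genes came from the platform annotation, in which 23521 probe sets listed 1 gene, 1820 several and 15814 none. A gene was represented by its own probe set with the highest mean, and of 1055 entries in 42 gene lists 975 had one and the others were not analysed here. Named genes were the 12 largest differences in each direction, the smallest p in each direction, and members of the lists with the largest differences or defining roles. Members and lists were chosen with earlier results of these data known. Array number limits the precision. With 1 array for each mouse and region, p-values rest on the spread between arrays, in which mice, dissections and arrays cannot be told apart.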

Additional observations from a re-analysis of the deposited data

Results flagged for a closer look

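Among the named genes, 444 groups of arrays were tested for a single array far from the rest of its region (Dixon's test), and 26 (5.86%) had one, where chance gives about 1 in 20. No explanation was tested for any of them. In the cerebellum, the array of mouse 20 was lowest for Fezf2 (2.17, against 3.07 to 3.50 on the others), Mpped1 (4.42) and Esrrg (7.35) and highest for Nr2e1 (4.40) and Syt2 (9.92). The cerebellum of mouse 25 was lowest for the immediate early genes Fos (4.25, against 6.09 to 6.82) and Dusp1 (8.54, against 9.32 to 9.58). The cerebellum of mouse 49 was lowest for Atoh1 (3.06) and highest for Otx2 (7.61), that of mouse 16 was lowest for Actb (7.87), that of mouse 10 was highest for Cdh7 (8.77) and that of mouse 48 was highest for Grin2b (6.62).

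In the hippocampus, the array of mouse 17 was lowest for Gda (7.90, against 8.39 to 8.63) and Calb1 (9.07) and highest for Unc13c (8.58, against 7.39 to 7.81). The array of mouse 29 was highest for Otx2 (7.02, against 4.51 to 5.61) and Plk5 (7.23), and the choroid plexus list had its highest hippocampal mean on the same array. Cbln4 was lowest in mouse 44 (5.19, against 6.44 to 7.24) and Cbln1 in mouse 49 (6.40). Cdh7 (5.90) and C1ql4 (1.94) were lowest in mouse 56. Cacna1a (9.83) and Egr3 (9.09) were highest in mouse 16, Camk4 (8.71) and Htr2a (8.70) in mouse 6 and Slc1a3 (10.59) in mouse 35.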

How the results depend on the processing

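Counts of probe sets higher in cerebellum and in hippocampus stayed within 1.5 times of 6570 and 5202, and of 1274 and 1490 at 2-fold, under every setting tried except limma's treat, which tests against a 2-fold difference and called 661 and 972. Centring each array on kept probe sets gave 5833 and 5673, centring on reference genes 7344 and 4744. Leaving out 1 array at a time gave 6244 to 6510 and 5055 to 5199, and 1234 to 1306 and 1484 to 1525 at 2-fold. Among the wt mice, numbers 16 and 49 occur in both regions, but their deviations correlated at only 0.010 and 0.027. With the mouse number as a replicate block the counts were 6587, 5214, 1274 and 1485. The following fits were added after seeing the data. Leaving out 1 array at a time gave 8153 to 8481 probe sets in Del/+ and 7134 to 8376 in Dup/+ mice. The test of genotype on the region difference gave 0 to 2 for Del/+ (2 without the cerebellum array of Del/+ mouse 26 or wt mouse 25, 1 without that of wt mouse 10 or 49 or Dup/+ mouse 19) and 0 to 1 for Dup/+ (1 without wt hippocampus 17 or wt cerebellum 25). The cause was not tested. None of the 206 named genes tested changed direction under any of the 24 settings. Apart from treat, 4 (Ttr, Drd4, Mir181b-2 and Nptx1) fell short of the threshold under at least 1 setting and 2 (Tcf7l2 and Kcna4) passed it under at least 1. Few mice per group and signals near background limit what the arrays can show.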

Other observations

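For 14 genes, probe sets of the same gene passed the test in opposite directions, among them Arhgap26, Gcnt2, Lsamp, Ryr1 and Smarcd1. These were chosen after the values were seen, and which transcripts each probe set reads was not tested. Shank3, a postsynaptic scaffold, had a brighter probe set that was not kept (means 8.59 in both regions) and a dimmer one that was higher in the cerebellum (7.93 ± 0.14 against 5.10 ± 0.18, SD, n = 6 and 8 arrays, difference 2.83 ± 0.09, SE, adjusted p = 7.02e-13, limma).

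On the hippocampus arrays, the thalamic genes Tcf7l2 and Prkcd had the same 4 arrays at the top. In the order of mice 17, 44, 35 and 49, Tcf7l2 gave 8.01, 7.23, 6.99 and 6.90, and the other 4 mice gave 5.49 to 5.88. Prkcd gave 9.88, 9.36, 8.71 and 8.94 in these mice and 6.84 to 7.69 in the others. Slc17a6, the vesicular glutamate transporter of thalamic neurons, was also highest in mouse 17 (8.81).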
